A study of Rattus norvegicus with 12 samples.

Results

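The Wnt ligands are secreted signalling proteins, and 8 of their genes, Wnt2, Wnt4, Wnt5a, Wnt6, Wnt7a, Wnt9b, Wnt10a and Wnt11, were followed in rat bladder by every array probe whose RefSeq accession names one of them. That gave 9 probes for 7 of the 8 genes, among 30367 probes in all. No probe matched Wnt2 in this way, and it is not analysed here. Each of the other 7 had a probe well above background on all 12 arrays and was tested, among 20425 features. The 8 genes were chosen by a rule drawn up with the group levels and changes of these same arrays in view. Their own levels and changes are therefore a description, and the p-values beside them, taken from the fit to all features, only place them among the rest and support nothing further.

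The arrays carry total RNA of the bladder body, each from a different male rat of the Fischer 344 strain. In 3 groups of 4 animals, old rats of 25 to 28 months had been fed on only 3 days a week since the age of 6 weeks (old restricted, about 40% less food energy by the labels), old rats of 25 to 28 months ate normal food freely (old freely fed), and young rats of 6 months ate normal food freely (young). The series asks, by its title, which inflammatory and oxidative changes ageing brings to the bladder and whether restriction prevents them. Levels below are log2 signals from which the array's own 75th percentile was taken away, so they compare animals for 1 probe and never 1 gene with another. In whole tissue, fewer cells of a type and less RNA per cell cannot be told apart.

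Wnt proteins carry a lipid and bind Frizzled receptors on nearby cells. With the co-receptors Lrp5 and Lrp6 they stabilise beta-catenin, which enters the nucleus and works with TCF/LEF factors, whereas ligands such as Wnt5a and Wnt11 are best known for branches that do not need beta-catenin. In the mouse bladder, sonic hedgehog made by basal urothelial cells acts on the stroma below and raises Wnt expression there during repair of the epithelium.

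Promoter sequence is shown for the 5 ligands that passed the threshold in some comparison, to set the stretch before the start of those that were higher beside that of those that were lower. Each run is the 250 bases upstream of the annotated start, from RefSeq on the GRCr8 build, written 5′ to 3′ along the gene. Capitals mark matches on either strand to 6 motifs: the TATA box TATAAA, the CCAAT box CCAAT, the GC box GGGCGG, the TCF/LEF core CTTTGA, the GLI site GACCACCCA and the canonical E-box CACGTG. Wnt6 (chr9:83778302-83778551 on the plus strand) and Wnt10a (chr9:83798344-83798593 on the plus strand) are neighbouring genes. Wnt9b (chr10:89157066-89157315 on the minus strand) lies next to Wnt3, and Wnt7a (chr4:125466150-125466399 on the minus strand) and Wnt4 (chr5:154797200-154797449 on the plus strand) have no Wnt gene beside them.
Wnt4: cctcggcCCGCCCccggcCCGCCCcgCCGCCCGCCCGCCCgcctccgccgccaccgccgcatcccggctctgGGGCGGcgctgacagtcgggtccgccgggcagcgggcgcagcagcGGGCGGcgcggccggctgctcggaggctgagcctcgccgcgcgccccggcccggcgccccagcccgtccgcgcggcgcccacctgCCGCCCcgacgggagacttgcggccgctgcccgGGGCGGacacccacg
Wnt10a: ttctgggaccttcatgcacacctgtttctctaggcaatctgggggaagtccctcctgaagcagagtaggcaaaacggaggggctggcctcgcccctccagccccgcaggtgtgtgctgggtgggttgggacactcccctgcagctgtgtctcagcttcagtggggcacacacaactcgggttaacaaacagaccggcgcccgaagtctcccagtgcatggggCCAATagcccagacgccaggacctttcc
Wnt6: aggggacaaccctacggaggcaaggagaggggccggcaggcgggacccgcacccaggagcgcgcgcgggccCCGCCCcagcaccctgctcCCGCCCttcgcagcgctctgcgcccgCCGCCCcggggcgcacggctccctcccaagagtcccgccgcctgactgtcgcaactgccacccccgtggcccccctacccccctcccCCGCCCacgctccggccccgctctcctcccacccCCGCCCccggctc
Wnt7a: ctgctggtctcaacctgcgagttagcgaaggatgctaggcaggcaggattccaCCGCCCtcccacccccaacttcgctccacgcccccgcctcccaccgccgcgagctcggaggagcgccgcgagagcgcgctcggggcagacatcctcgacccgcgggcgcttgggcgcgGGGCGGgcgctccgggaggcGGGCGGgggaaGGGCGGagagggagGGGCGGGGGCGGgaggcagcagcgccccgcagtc
Wnt9b: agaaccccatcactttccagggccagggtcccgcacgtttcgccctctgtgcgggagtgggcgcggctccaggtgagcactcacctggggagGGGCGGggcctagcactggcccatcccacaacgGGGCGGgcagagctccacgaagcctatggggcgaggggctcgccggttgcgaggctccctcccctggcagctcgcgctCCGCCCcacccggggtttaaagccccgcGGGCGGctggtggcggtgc
Wnt4, Wnt6, Wnt7a and Wnt9b held the GC box, with 9, 5, 6 and 4 matches, some of which overlap each other. Wnt10a had a single match, to the CCAAT box, 28 to 24 bases upstream of its start. Of 33469 upstream sequences of the same length in the table, 30.5% held the GC box and 34.0% the CCAAT box. Among the 16 Wnt genes with an entry, 10 held the GC box, 6 the CCAAT box, 1 the TCF/LEF core (13.9% of all), 2 the E-box (5.59% of all), 0 the TATA box (12.9% of all) and 0 the GLI site (0.338% of all). The upstream stretch was 86.4% G and C in Wnt4 and 61.2% in Wnt10a, against a median of 51.2% over all entries. A match describes letters in this window and no more.

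Markers of the layers of a bladder wall were present: of 17 urothelial markers tested, 16 were well above background on all 12 arrays, as were 13 of 14 smooth muscle and 11 of 11 fibroblast markers. So were 7 of 7 striated muscle, 11 of 11 nerve and glia and 3 of 4 prostate and seminal vesicle markers, so detection alone does not single out the labelled tissue. Probes well above background numbered 22566 to 23200 of 30367 in old restricted, 23373 to 24644 in old freely fed and 21659 to 22294 in young animals. Old freely fed replicate 2 stood apart at 51.9 on the first principal component, against 7.27 to 13.7 in the other 3 of its group. Young and old freely fed rats were hybridised in different rows of 1 slide, while the 4 old restricted rats shared another slide and another scan. Only the old freely fed rats were in row 2, with both other groups in row 1. Slide, scan and array row therefore cannot be told apart from restriction, nor array row from age. Restricted and young rats differed in slide and scan too.

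Old freely fed rats were first set against young rats, to ask what age does to these genes. Of the 7 measured ligands, Wnt10a was higher with an adjusted p under 0.05 (limma, Benjamini-Hochberg over all 20425 features) and 0 were lower. Of all features 3.72% passed in this comparison, 1.63% upwards and 2.1% downwards. These were 332 higher and 428 lower features, and 364 higher and 152 lower after quantile normalization or 370 and 145 after median centring, under which Wnt10a was higher too. Wnt4 and Wnt6 were higher in most old animals but did not pass, and Wnt5a had a log2 change of 0.02. The median log2 change of the 7 was 0.22, against -0.05 over all features, and 5 of the 7 values were above 0.

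Wnt10a, whose human gene is known from inherited defects of teeth, hair and skin, stood at -1.49, -1.70, -1.53 and -1.94 in old freely fed rats. Young rats had -2.17, -1.96, -2.07 and -2.11. All 4 old animals lay above all 4 young ones, if narrowly at -1.94 against -1.96, which was so for 1 of the 7 ligands and for 15.1% of all features. Wnt10a was 1.33-fold higher in old freely fed than in young rats (log2 change 0.41, SE 0.09, adjusted p = 0.035, limma). It missed the threshold with normexp background correction (adjusted p = 0.056), in a fit to these 2 groups alone (adjusted p = 0.09) and in 7 of 12 fits that left out 1 animal (young replicates 1 to 4, old freely fed replicates 2 and 3 and old restricted replicate 2), with log2 changes of 0.37 to 0.45 in those 7.

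Wnt6, an epithelial ligand in many embryonic tissues, was at -2.74, -3.40, -2.75 and -2.78 in old freely fed rats, against -3.24, -3.52, -3.61 and -3.93 in young rats. Old freely fed replicate 2 was the low one, and it alone fell within the range of the young animals. The log2 change was 0.66 (SE 0.17, adjusted p = 0.057), and 0.82 without that animal (adjusted p = 0.028). Wnt4, which the mouse needs to form kidney tubules and the female reproductive tract, stood at -0.93, -1.39, -0.85 and -1.37 in old freely fed and at -1.39, -1.69, -1.63 and -1.68 in young rats. The lowest old animals reached the level of the highest young one, and the log2 change was 0.46 (SE 0.13, adjusted p = 0.07). With no filter on dim probes, under which 3568 features passed against 760 as reported, both Wnt6 and Wnt4 passed (adjusted p = 0.031 and 0.042). Of 12 fits that left out 1 animal, Wnt6 passed only in the 1 given above. Wnt4 passed in 0 of 12 (adjusted p = 0.056 to 0.14, limma). Wnt7a and Wnt9b had log2 changes of -0.16 and 0.22 (adjusted p = 0.44 and 0.35), with overlapping animals.

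**Figure D1:**
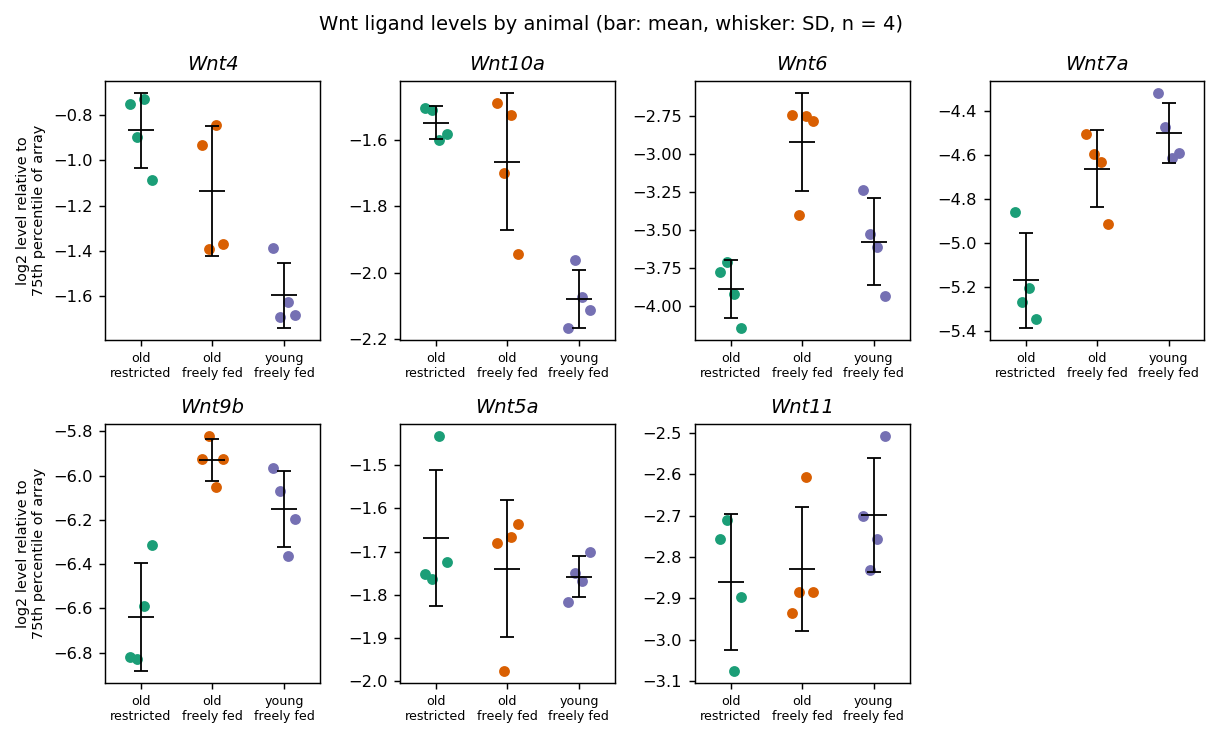
Log2 level of 7 Wnt ligands above or below the array's 75th percentile, 1 point for each animal, with the group mean (bar) and SD (whisker, n = 4), old restricted left, old freely fed in the middle and young right. The group means of Wnt4 and Wnt10a are highest in old restricted and lowest in young animals, those of Wnt6 and Wnt9b are highest in old freely fed and lowest in old restricted animals, and Wnt5a and Wnt11 overlap across groups.

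Restricted old rats were next set against freely fed old rats, to ask whether a lifelong lower intake changes the ligands in old bladder. Wnt6, Wnt9b and Wnt7a were lower in restricted rats, 3 of the 7, and 0 were higher. Of all features 3.64% passed in this comparison, 1.62% upwards and 2.02% downwards. These were 331 higher and 413 lower features, and 580 higher and 325 lower with normexp background correction, under which Wnt6 and Wnt7a were lower too. This comparison shares the old freely fed animals with that of age, so the values of both rest in part on the same 4 arrays.

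Wnt6 had the change of greatest size among the 7 in this comparison. Restricted rats stood at -3.77, -3.71, -3.92 and -4.14, against the old freely fed values of -2.74, -3.40, -2.75 and -2.78 given above. Even old freely fed replicate 2 lay above every restricted animal. Wnt6 was 1.96-fold lower in restricted rats (log2 change -0.97, SE 0.17, adjusted p = 0.015, limma), and the value was -1.13 without old freely fed replicate 2 (adjusted p = 0.0068). It passed in all 12 fits that left out 1 animal (log2 change -1.13 to -0.88). T and NK cell markers were also highest in old freely fed rats: 3 of 15 were lower with restriction, 8 of 15 were higher with age, and 14 of 15 were well above background on all 12 arrays. Their mean log2 level was -3.82 to -3.36 in old restricted, -3.06 to -2.25 in old freely fed and -4.065 to -3.64 in young rats, and macrophage markers, with 2 of 12 higher with age and 0 of 12 called with restriction, were at 0.48 to 0.75, 0.54 to 1.56 and 0.29 to 0.53 in the same groups. Of all features 3.64% passed with restriction and 3.72% with age. Within the old freely fed group, replicate 2, the low one for Wnt6, was the highest for Prf1, at 1.08 against -2.70 to -2.47. It was also the highest for C1qa, at 4.11 against 2.65 to 3.14, but the lowest for Cd3d, Cd3e, Cd3g and Cd8b. The part of T and NK cell or macrophage markers in the Wnt6 result was not tested.

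Wnt9b, which in the mouse kidney is the signal from the ureteric bud to the surrounding mesenchyme, also separated the groups. Restricted rats had -6.82, -6.83, -6.59 and -6.31, against -5.92, -5.82, -6.05 and -5.93 in old freely fed rats. Such separation held for Wnt6 and Wnt9b among the 7 and for 14.7% of all features. Wnt9b was 1.63-fold lower in restricted rats (log2 change -0.71, SE 0.14, adjusted p = 0.02, limma). With normexp background correction the change was -0.19 and did not pass (adjusted p = 0.079), and with normexp and quantile normalization it was -0.29 and passed (adjusted p = 0.019). Negative control spots, on the same scale, averaged -9.81 to -9.54 in restricted and -10.5 to -9.97 in old freely fed rats, and the part of background in the Wnt9b result was not tested. A second Wnt9b probe was well above background in 0 of 4 restricted and 1 of 4 old freely fed animals and was not tested. Wnt9b missed the threshold without old freely fed replicates 1 and 2 or old restricted replicate 2 (log2 change -0.71, -0.67 and -0.64, adjusted p = 0.051, 0.053 and 0.064).

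Wnt7a, which patterns the limb and the female reproductive tract in the mouse, stood at -4.86, -5.27, -5.21 and -5.35 in restricted rats. Old freely fed rats had -4.51, -4.60, -4.63 and -4.91. Restricted replicate 1 lay within the range of the freely fed animals and the other 3 lay below it. Wnt7a was 1.42-fold lower in restricted rats (log2 change -0.51, SE 0.12, adjusted p = 0.047, limma), with log2 changes of -0.51 to -0.34 in 9 other settings. That call was at the edge of the threshold: it was lost in 9 of 12 fits without 1 animal (those without young replicates 2 to 4, old freely fed replicates 1 to 3 and old restricted replicates 2 to 4, log2 change -0.51 to -0.45 in the 9), with no filter on dim probes (adjusted p = 0.062) and in a fit to these 2 groups alone (adjusted p = 0.084).

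For Wnt4 and Wnt10a the mean of restricted rats was no nearer to that of young rats than the mean of old freely fed rats was. Wnt4 had -0.75, -0.90, -0.73 and -1.09 in restricted rats, a log2 change of 0.27 from old freely fed rats (SE 0.13, adjusted p = 0.28). Wnt10a had -1.50, -1.51, -1.60 and -1.58 in restricted rats, a log2 change of 0.12 (SE 0.09, adjusted p = 0.49). The animals of both old groups overlapped for both genes, and neither difference passed. Wnt6 and Wnt10a, neighbours on chromosome 9, thus gave restriction values of -0.97 and 0.12.

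**Figure D2:**
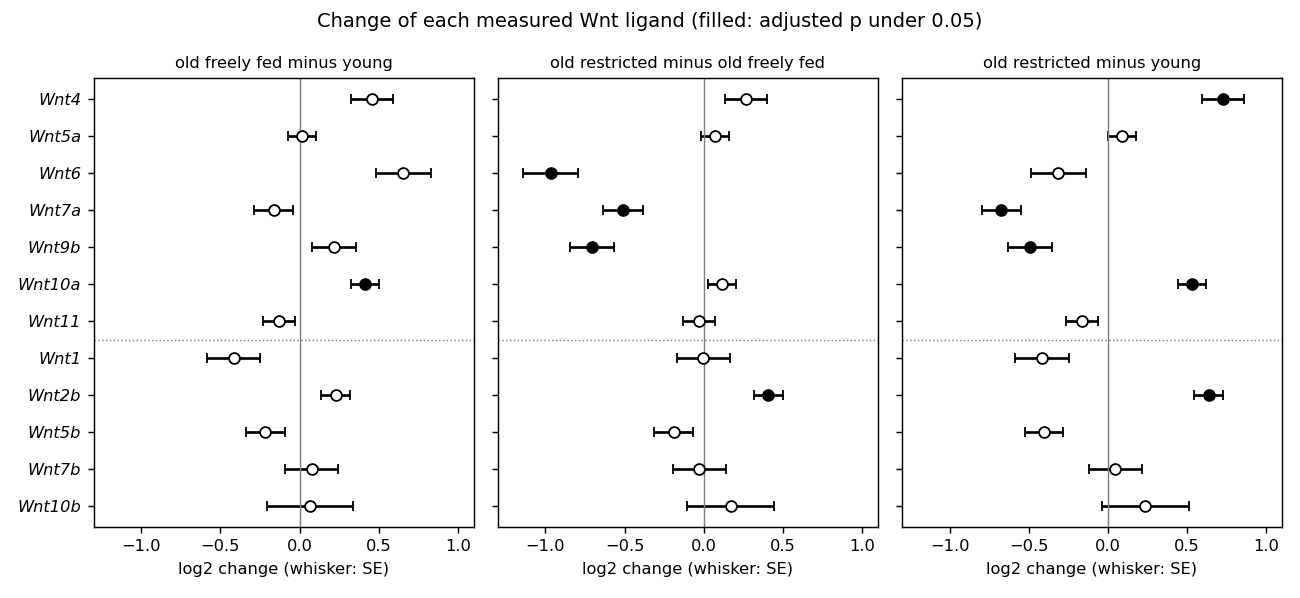
Log2 change of each tested Wnt ligand in the 3 comparisons, with SE as whisker and filled points at an adjusted p under 0.05; the 7 ligands described are above the dotted line and 5 others of the family below it. Wnt6 is at 0.66 with age and -0.97 with restriction, and Wnt2b, below the line, is at 0.41 with restriction.

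Set against young rats, restricted old rats combine age and diet. Wnt4 and Wnt10a were higher and Wnt7a and Wnt9b lower, 4 of the 7 against 9.18% of all features (3.19% upwards and 5.99% downwards). These were 651 higher and 1223 lower features, against 826 and 880 after quantile normalization, where 3 of the 4 ligands passed. This comparison shares its animals with both others. Restricted and young animals did not overlap for Wnt4, Wnt10a and Wnt7a, as for 18% of all features. Wnt4 was 1.66-fold higher in restricted than in young rats (log2 change 0.73, SE 0.13, adjusted p = 0.0095, limma), and Wnt10a 1.44-fold higher (log2 change 0.53, SE 0.09, adjusted p = 0.0064, limma). Both passed in all 12 fits without 1 animal and in the 9 other settings that gave a value.

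Wnt7a stood at -4.32, -4.47, -4.62 and -4.59 in young rats, all above the restricted animals listed above. It was 1.59-fold lower in restricted rats (log2 change -0.67, SE 0.12, adjusted p = 0.01, limma) and passed in all 12 fits without 1 animal. It also passed in the 9 other settings that gave a value, with log2 changes of -0.67 to -0.46. Wnt9b stood at -5.97, -6.07, -6.36 and -6.20 in young rats, and restricted replicate 4, at -6.31, lay among them. Its log2 change was -0.49 (SE 0.14, adjusted p = 0.049), and it missed the threshold in 10 of 12 fits without 1 animal (young replicates 1, 2 and 4, all 4 old freely fed replicates and old restricted replicates 1 to 3, log2 change -0.51 to -0.43), with quantile normalization (-0.41, adjusted p = 0.096), and median centring (-0.47, adjusted p = 0.068) and in a fit to these 2 groups alone (adjusted p = 0.096). With normexp it was -0.21 and passed (adjusted p = 0.045), and with normexp and quantile normalization it was -0.20 and did not (adjusted p = 0.063). Negative control spots averaged -9.18 to -8.94 in young rats, so the floor too was lower in restricted rats, and its part in the result was not tested. Wnt6 had a log2 change of -0.31 (SE 0.17, adjusted p = 0.28), with overlapping animals.

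Markers of other tissue and of the bladder's own layers were read in these contrasts too. The counts below are to be read beside the shares of all features that passed. These were 3.72% with age, 3.64% with restriction and 9.18% between restricted and young rats. Prostate and seminal vesicle markers, of glands beside the bladder, had a mean log2 level of -6.64 to -5.85 in restricted, -6.41 to -5.28 in old freely fed and -4.72 to -4.02 in young rats, with 2 of the 4 tested lower in restricted than in young animals and Pbsn, Svs2, Svs4, Svs5 and Spink1 not tested, and the same number lower with age. Andpro, among those called, was well above background on 0 restricted, 1 old freely fed and 4 young arrays. It was thus tested through the young group alone, and its means were -9.42, -9.01 and -3.41 in that order. Mmp7 of the same list went the other way, with log2 changes of 0.85 with age and 0.23 between restricted and young rats, neither called. Smooth muscle markers stood at 4.20 to 4.43, 3.68 to 4.48 and 4.58 to 4.67 in the same groups, with 5 of 14 lower in restricted than in young rats and 4 of 14 lower with age. The low end in old freely fed rats is replicate 4, where Tagln stood at -1.97, not well above background, against 5.82 to 6.24 in the other 3. Without Tagln, a choice made after seeing the data, the ranges were 4.07 to 4.30, 4.09 to 4.34 and 4.45 to 4.55. Striated muscle markers were at -0.94 to -0.78, -0.95 to -0.26 and -0.29 to 0.09, with 3 of 7 lower in restricted than in young rats (list median log2 change -0.91) and 1 of 7 with age. Fibroblast markers were at 1.78 to 1.83, 1.52 to 1.81 and 1.75 to 1.99, with 2 of 11 higher and 2 lower in restricted than in young rats and 2 of 11 lower with age. Nerve and glia markers were at -1.99 to -1.82, -1.89 to -1.50 and -1.51 to -1.24, with 4 of 11 lower in restricted than in young rats and 2 of 11 with age. Urothelial markers were at 2.31 to 2.39, 2.05 to 2.26 and 2.16 to 2.32, with 1 of 17 higher and 1 lower in restricted than in young rats. With age 1 of 17, Krt5, was higher, and with restriction 0 of 17 passed (8 higher and 0 lower with an unadjusted p under 0.05, limma). Krt5, a keratin of basal cells, was 2.01-fold higher and Tp63, a basal cell transcription factor, 1.25-fold lower in restricted than in young rats (adjusted p = 0.0032 and 0.039, limma). Endothelial markers were at -1.77 to -1.58, -1.64 to -1.55 and -1.66 to -1.465 in the same groups, with 0 of 7 called with age. With restriction 1 of 7, Pecam1, was lower (log2 change -0.36, adjusted p = 0.047, limma). Between restricted and young rats 1 of 7, Cdh5, was lower. Mesothelial markers were at -0.41 to 0.10, -0.33 to 0.53 and -0.75 to 0.37, with 0 of 4 called in each comparison. The part of all these markers in the Wnt results was not tested.

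The ligands best known for beta-catenin-independent signalling did not pass in any of the 3 comparisons. Wnt5a, which guides tissue outgrowth and cell movement, stood at -1.75, -1.76, -1.43 and -1.72 in restricted, at -1.68, -1.98, -1.67 and -1.64 in old freely fed and at -1.82, -1.75, -1.77 and -1.70 in young rats. Restricted replicate 3 was the high value and old freely fed replicate 2 the low one. Its log2 changes were 0.02 with age, 0.07 with restriction and 0.09 between restricted and young rats (SE 0.09 each, adjusted p = 0.91, 0.68 and 0.55). Wnt11, a ligand of the branching ureteric bud in the mouse, had 2 probes. The brighter stood at -2.86 ± 0.16 in restricted, -2.83 ± 0.15 in old freely fed and -2.70 ± 0.14 in young rats (SD, n = 4), and the other at -2.92 ± 0.12, -2.81 ± 0.10 and -2.76 ± 0.23. The 2 probes gave log2 changes of -0.13 and -0.05 with age, -0.03 and -0.11 with restriction and -0.16 and -0.16 between restricted and young rats, with 0 of these 6 past the threshold (adjusted p = 0.35 to 0.89, limma on all probes; 0 at an unadjusted p under 0.05 by the brighter probe).

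The rest of the family was read as well. Of 11 further ligands, 10 had a probe and 5 were tested. Wnt2b, a ligand related to Wnt2, was at -0.64, -0.52, -0.55 and -0.59 in restricted, at -1.22, -0.87, -0.99 and -0.88 in old freely fed and at -1.36, -1.26, -1.27 and -0.97 in young rats. Every restricted animal lay above every animal of the other groups. Over all features, restricted rats did not overlap old freely fed rats for 14.7% and young rats for 18%. Wnt2b had these changes. It was 1.33-fold higher in restricted than in freely fed old rats (log2 change 0.41, SE 0.09, adjusted p = 0.034, limma) and 1.56-fold higher in restricted than in young rats (log2 change 0.64, adjusted p = 0.0031, limma). The first call was lost with median centring (0.40, adjusted p = 0.0504) and in 7 of 12 fits without 1 animal (young replicate 2, old freely fed replicates 1 and 3 and all 4 restricted replicates, log2 change 0.33 to 0.43), and the other in 0 of 12.

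Wnt1, Wnt5b, Wnt7b and Wnt10b had 0 calls in the 3 comparisons (limma), and Wnt1 with age and Wnt1 and Wnt5b between restricted and young rats had an unadjusted p under 0.05. Their log2 changes with age were -0.42, -0.22, 0.08 and 0.07, and between restricted and young rats -0.42, -0.40, 0.05 and 0.24. Wnt9a was well above background in 3 of 4 restricted, 3 of 4 old freely fed and 0 of 4 young rats, but its mean level was -7.04 ± 0.15, -7.29 ± 0.34 and -7.11 ± 0.35 in those groups (SD, n = 4), so the young were not the low group. Wnt8a was well above background in 1, 2 and 0 animals, at -7.82 ± 0.52, -7.79 ± 0.34 and -8.09 ± 0.45. The SD of the negative control signals, on the linear scale, was 7.82 to 25.8, 3.29 to 10.8 and 26.7 to 35.7 in the same groups. Wnt3 reached that mark in 1 of 12 animals, and Wnt8b and Wnt16 in 0 of 12. These 5 were not tested.

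The genes around the ligands were read from lists of the pathway. Over all features, 3.72% passed with age, 3.64% with restriction and 9.18% between restricted and young rats. An unadjusted p under 0.05 (limma) was reached by 5032, 4210 and 5340 of the 20425 features in the same comparisons. The list counts below are to be read beside these. Among 5 genes of Wnt secretion and release, Notum, an enzyme that removes the lipid from Wnt proteins and so inactivates them, was higher in old rats under both diets. It stood at -2.85, -2.69, -2.81 and -2.92 in restricted, at -2.45, -2.65, -2.51 and -2.65 in old freely fed and at -3.44, -3.34, -3.44 and -3.11 in young rats. All 8 old animals lay above all 4 young ones. Old freely fed and young rats did not overlap for 15.1% of all features, and restricted and young rats for 18%. The change was 1.70-fold with age (log2 change 0.77, SE 0.08, adjusted p = 0.0039, limma) and 1.43-fold between restricted and young rats (log2 change 0.52, adjusted p = 0.0056, limma), and it passed in all 12 fits without 1 animal in both. With restriction the log2 change was -0.25 (adjusted p = 0.12). The other 4 genes of that list had 0 calls in the 3 comparisons (limma; an unadjusted p under 0.05 in 2 with age and 3 between restricted and young rats, all lower).

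Among secreted antagonists 2 of 11 rose with age and 0 fell (4 and 0 with an unadjusted p under 0.05), with a median log2 change of 0.12 against -0.05 over all features. Frzb, a decoy receptor that binds Wnt proteins, stood at 0.23, 0.21, 0.55 and 0.07 in old freely fed and at -0.40, -0.43, -0.46 and -0.39 in young rats, without overlap, as for 15.1% of all features. It rose 1.61-fold (log2 change 0.68, SE 0.12, adjusted p = 0.02, limma), and its call was lost without young replicate 2 (0.68, adjusted p = 0.057). Restricted rats had Frzb at -0.40, -0.21, 0.22 and -0.14, with replicate 1 among the young. Frzb did not pass with restriction (log2 change -0.40, adjusted p = 0.099) or between restricted and young rats (0.29, adjusted p = 0.16, limma). Igfbp4, an IGF binding protein that also blocks the Frizzled and Lrp6 complex, rose 1.43-fold with age (log2 change 0.52, SE 0.08, adjusted p = 0.014, limma; adjusted p = 0.057 in a fit to these 2 groups alone) and fell by 0.37 on the log2 scale with restriction (SE 0.08, adjusted p = 0.033, limma). It stood at 2.57, 2.41, 2.48 and 2.45 in restricted, 2.80, 2.90, 2.88 and 2.82 in old freely fed and 2.03, 2.44, 2.39 and 2.46 in young rats, so that the old freely fed animals were the high group. Its fall was lost in 7 of 12 fits without 1 animal (old freely fed replicates 1 to 4 and restricted replicates 2 to 4, log2 change -0.39 to -0.35). With restriction 1 of 11 antagonists fell and 0 rose (5 and 1 with an unadjusted p under 0.05), and between restricted and young rats 0 of 11 passed (limma; 1 higher and 2 lower with an unadjusted p under 0.05), the nearest being Dkkl1 at a log2 change of -0.33 (adjusted p = 0.055).

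**Figure D3:**
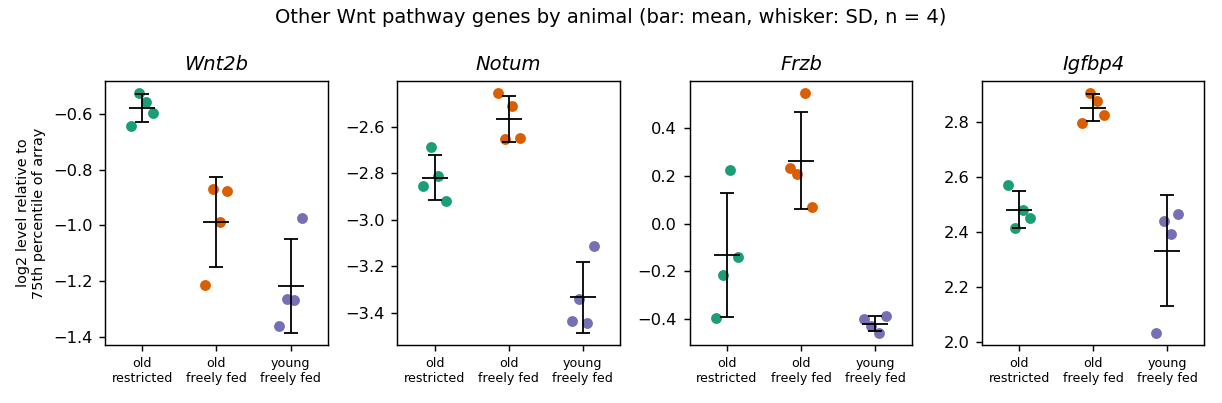
Log2 level of Wnt2b, Notum, Frzb and Igfbp4 above or below the array's 75th percentile, 1 point for each animal with group mean and SD (n = 4), old restricted left, old freely fed in the middle and young right. Wnt2b is highest in old restricted animals at -0.64 to -0.52, and the group means of Notum and Frzb are lowest in young animals. For Frzb, old restricted replicate 1 lies among the young animals.

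Receptors and co-receptors gave 0 calls among 11 genes in each comparison (limma; at an unadjusted p under 0.05, 0 higher and 2 lower with age, 3 and 0 with restriction, 1 and 2 between restricted and young rats). The nearest were Fzd2 with age (log2 change -0.42, adjusted p = 0.085), the receptor tyrosine kinase-like Ryk with restriction (0.21, adjusted p = 0.1) and Lrp6 between restricted and young rats (-0.25, adjusted p = 0.067). R-spondins, which amplify Wnt signals, and their Lgr receptors gave 0 calls among 6 genes in each comparison (0 at an unadjusted p under 0.05, limma), with Rspo1 at 0.45 with age and -0.48 with restriction (SE 0.25 each).

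Of 25 intracellular genes of the beta-catenin pathway, 1 fell with age, 0 passed with restriction (limma; 7 higher and 1 lower with an unadjusted p under 0.05), and 1 rose and 1 fell between restricted and young rats. These counts were near the shares over all features, 3.72%, 3.64% and 9.18%, and so do not set the list apart. Bcl9l, a coactivator of beta-catenin, fell by 0.24 with age on the log2 scale (adjusted p = 0.043, limma) and by 0.36 between restricted and young rats (adjusted p = 0.0043, limma). The age call of Bcl9l was lost in 10 of 12 fits without 1 animal (all 4 young replicates, old freely fed replicates 2 to 4 and old restricted replicates 1, 2 and 4, log2 change -0.25 to -0.21), with quantile normalization, median centring and normexp with quantile normalization (adjusted p = 0.066, 0.075 and 0.083), and in a fit to the 2 groups alone (adjusted p = 0.088). The call between restricted and young rats held in all 12. Tle3, a corepressor of TCF/LEF factors, was 1.21-fold higher in restricted than in young rats (log2 change 0.27, adjusted p = 0.028, limma) and missed the threshold in 6 of 12 fits without 1 animal (young replicates 1 to 3 and restricted replicates 2 to 4, log2 change 0.24 to 0.28) and in a fit to the 2 groups alone.

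Known target genes of beta-catenin gave 0 calls among 16 in each comparison (limma; at an unadjusted p under 0.05, 1 higher and 1 lower with age, 2 and 1 with restriction, 4 and 1 between restricted and young rats). Axin2, a feedback inhibitor and widely used readout of the pathway, stood at -2.19, -2.22, -2.14 and -2.00 in restricted, at -2.52, -2.36, -2.17 and -2.32 in old freely fed and at -2.50, -2.37, -2.33 and -2.41 in young rats. Restricted animals lay above the young ones without overlap, and 18% of all features separated these groups in either direction. The log2 change of Axin2 was 0.26 (SE 0.08, adjusted p = 0.051, limma) and did not pass. Myc had a log2 change of 0.50 with age (adjusted p = 0.056) and Jun one of -0.94 with restriction (SE 0.30, adjusted p = 0.11). The planar polarity and calcium list, which serves Wnt5a and Wnt11, gave 0 calls among 19 genes in each comparison (limma; at an unadjusted p under 0.05, 1 higher and 2 lower, 3 and 0, 3 and 2). Its nearest genes were Nfatc4 with age (-0.22, adjusted p = 0.056), Ppp3ca with restriction (0.16, adjusted p = 0.13) and Nfatc3 between restricted and young rats (-0.19, adjusted p = 0.0503).

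**Figure D4:**
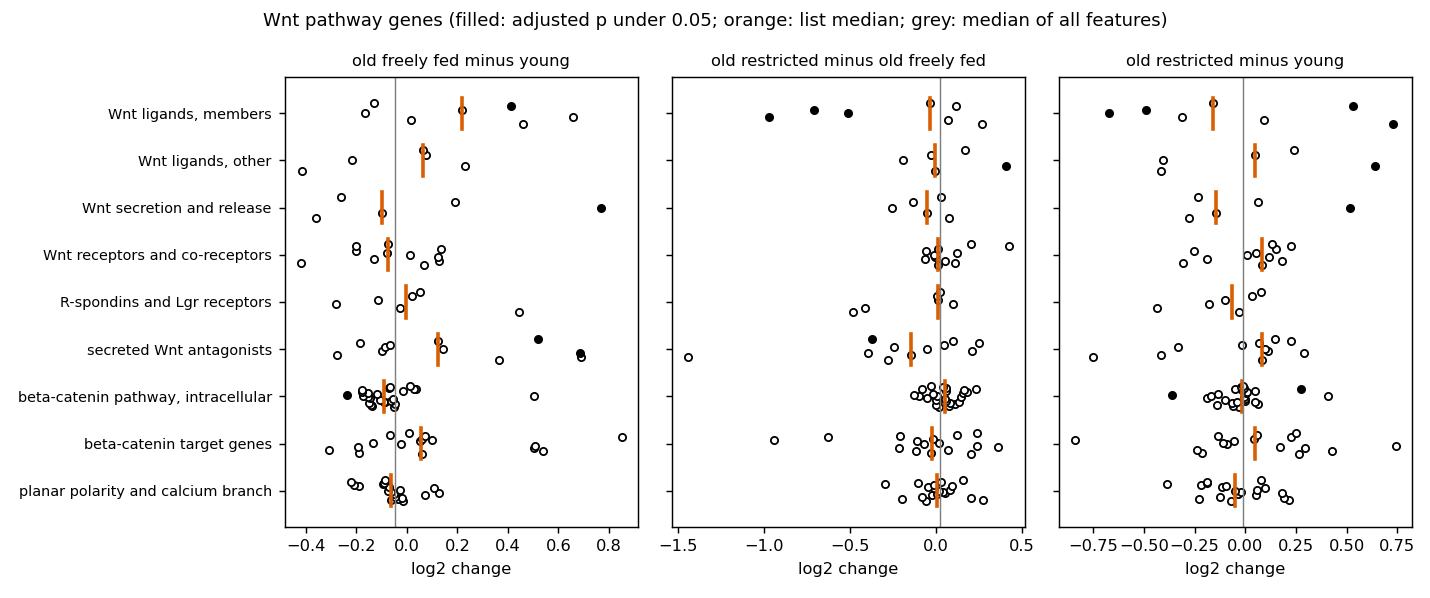
Log2 change of each tested gene of the Wnt pathway lists in the 3 comparisons, filled at an adjusted p under 0.05, with the list median in orange and the median of all features in grey. The row of the 7 ligands described holds 1, 3 and 4 filled points, the receptor and target rows hold 0, and the intracellular row spans -0.24 to 0.50 with age.

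Shh, the sonic hedgehog gene of the background, was on the urothelial marker list and Gli1 on the fibroblast list. Both were picked for naming after their values were seen. Shh had levels of -5.64 to -4.91 in restricted, -5.52 to -5.08 in old freely fed and -5.41 to -4.87 in young rats, which overlap. Gli1, a target of hedgehog signalling in stroma, stood at -1.04, -1.16, -1.08 and -1.17 in restricted rats and at -2.01, -1.67, -1.88 and -1.28 in young rats, with the old freely fed animals at -1.54 ± 0.23 (SD, n = 4). Gli1 was 1.51-fold higher in restricted than in young rats (log2 change 0.60, SE 0.15, adjusted p = 0.03, limma). It did not pass with age (0.17, adjusted p = 0.49) or with restriction (0.42, adjusted p = 0.14). Single markers were not followed through the repeat fits.

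Profiles over the 12 arrays were compared as the root mean square difference of standardised log2 levels, where 0 means the same pattern, among 11117 features with a symbol and well above background throughout. The closest to Wnt4 were Ces2c (0.29) and Tfap2a (0.34), to Wnt10a Slc25a10 (0.37) and Pc (0.38), and to Wnt6 Lmo1 (0.46) and Aig1 (0.48). The closest to Wnt7a were Pdzd4 (0.26) and Il20 (0.29), to Wnt9b Cxcl1 (0.30) and Has1 (0.35), to Wnt5a Robo1 (0.45) and Tubgcp2 (0.46), and to Wnt11 Wbp2 (0.42) and Prkar1b (0.45). These are the nearest of many features and describe these 12 arrays.

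**Figure D5:**
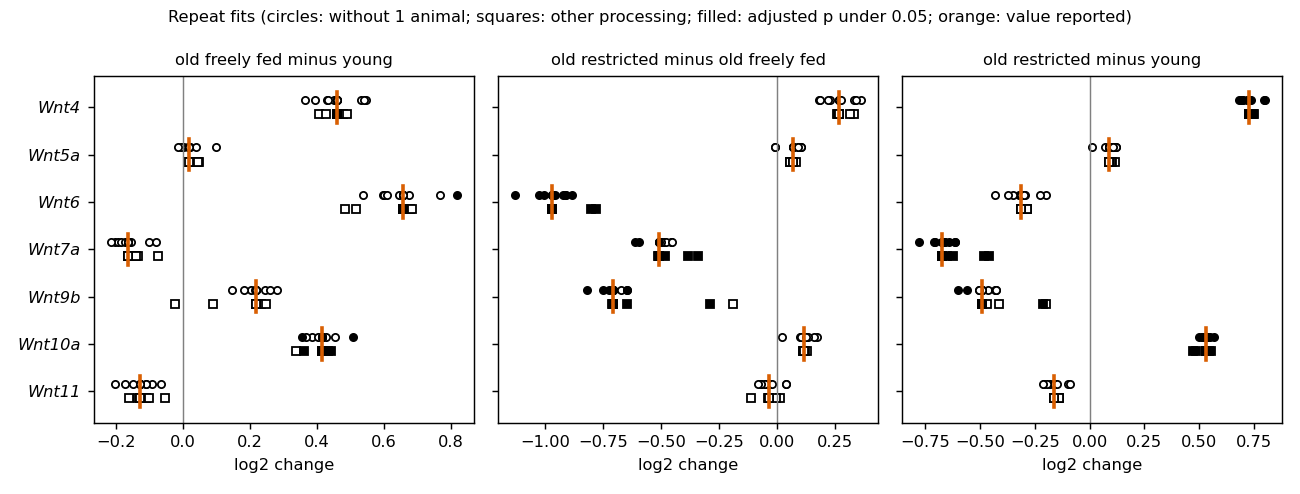
Log2 change of the 7 ligands in repeat fits, with circles for fits without 1 animal, squares for other processing, filled symbols at an adjusted p under 0.05 and the reported value in orange. Wnt6 with restriction and Wnt4, Wnt7a and Wnt10a between restricted and young rats are filled in every circle, while Wnt9b moves towards 0 in the squares with normexp.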

How the data were processed

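Total RNA of 12 bladders was labelled with Cy3 and hybridised 1 animal to an array, per the labels' protocols. The authors deposited the spot intensities read out by Agilent Feature Extraction 10.7, per the submitters' processing notes, background-subtracted and detrended within each array with no scaling between arrays, per the file headers, which name build rn4. The flags for spots well above background are other per-spot values of the deposited files. The series' value table equalled these signals in 100% of spots (relative tolerance 1e-06).

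Signals were scaled to the 75th percentile of 58717 non-control spots and averaged by probe on the log2 scale, leaving out outlier spots unless a probe had no other (91 averages). No spot was saturated. RefSeq accessions without version gave 17998 of 30367 probes (59.3%) a symbol from the GRCr8 table, used for names and promoters. Probes well above background on 4 of 4 arrays of some group were kept (23089), and the brightest stood for a gene, leaving 20425 features. limma 3.58.1 in R 4.3.3 was fitted to all 12 arrays with a brightness trend, with two-sided tests and a threshold of 0.05 after Benjamini-Hochberg adjustment, comparison by comparison. The steps were tested on simulated data. The members and lists were chosen with earlier results of these data known. The 8 pathway and 10 marker lists held 257 symbols, of which 204 were tested and 2 matched through a synonym. Named genes were all Wnt ligands, up to 4 called genes a list and comparison with the smallest adjusted p, or else the gene with the smallest unadjusted p, and the 2 closest profiles; Shh, Gli1 and other markers named were added after their values were seen. Replicates are separate animals, and 4 arrays in each group limit the precision. Groups share replicate numbers, which are also the array's column on its slide. The numbers were not taken to pair animals, so no block was used. The files have no mean spot signal, so normexp (offset 50) used the median signals.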

Additional observations from a re-analysis of the deposited data

Results flagged for a closer look

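Within groups of 4 animals, an animal was singled out where its gap to the nearest other passed the critical value of Dixon's test relative to the group's range. That happened in 4 of the 21 groups examined (7 ligands in 3 groups), where chance gives about 1 in 20. Wnt5a stood at -1.43 in old restricted replicate 3, against -1.76 to -1.72 in the other 3. Wnt5a stood at -1.98 in old freely fed replicate 2, against -1.68 to -1.64 in the others. Wnt6 stood at -3.40 in old freely fed replicate 2, against -2.78 to -2.74 in the others. Wnt11 stood at -2.61 in old freely fed replicate 3, against -2.94 to -2.88 in the others. Old freely fed replicate 2 gave 2 of the 4 values and was also the animal apart on the first principal component.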

How the results depend on the processing

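The number of ligands called with age, 1 as reported, was 0 with normexp and in a fit to the 2 groups alone, 2 with a replicate block, 3 with no filter on dim probes and 0 to 1 without 1 animal. With restriction it was 3 and lay between 1 and 3 without 1 animal (1 without old freely fed replicate 1 or 2 or old restricted replicate 2). Between restricted and young rats it was 4, and 3 to 4 without 1 animal. Features called over the whole table with age, 760 as reported, were 412 with normexp and quantile normalization (288 higher and 124 lower), 3568 with no filter on dim probes (691 higher and 2877 lower), 440 without the brightness trend, 498 with a replicate block, 94 in a fit to the 2 groups alone and 121 to 927 without 1 animal. With restriction they were 744 as reported, 478 in a fit to the 2 groups alone and 268 to 848 without 1 animal. Between restricted and young rats they were 1874, 3259 with no filter (781 higher and 2478 lower) and 737 to 2089 without 1 animal. The log2 change changed sign for Wnt9b with age under normexp (-0.023, reported 0.22) and for Wnt11 with restriction under normexp (0.016, reported -0.03), and without 1 animal for Wnt5a with age (-0.016 to 0.10) and restriction (-0.0069 to 0.11) and Wnt11 with restriction (-0.082 to 0.042), none of them called. The cause of these moves was not tested. Same-numbered arrays of different groups correlated at -0.19 to 0.10 in their deviations from the group means, against -0.22 to 0.29 for differently numbered arrays. Of 12 arrays, 3 correlated best with an array of their own number. In the replicate block fit, calls over the whole table with restriction were 498. There Wnt4 passed with age (adjusted p = 0.039), while Wnt9b between restricted and young rats, Igfbp4 with restriction and Bcl9l with age missed the threshold (adjusted p = 0.075, 0.062 and 0.066). Signal over background limits the second Wnt9b probe and Wnt3, Wnt8a, Wnt8b, Wnt9a and Wnt16.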
